A study of Homo sapiens with 4 samples.

Results

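The T-box factors examined here are 10 DNA-binding regulators of the early embryo, chosen by gene symbol out of the 20242 promoters in the files. They are T (brachyury), EOMES, TBR1, TBX1, TBX2, TBX3, TBX4, TBX5, TBX6 and TBX20, and all 10 had a value for both histone marks in both conditions. The cells were JMJD3c-hESCs, a stable derivative of SEES-3, a line of human embryonic stem cells. They carry a piggyBac transgene for HA-tagged JMJD3c behind a Tet-inducible promoter, together with a reverse Tet transactivator. JMJD3c is the part of JMJD3 that holds its catalytic domain, and JMJD3 is an enzyme that takes methyl groups off lysine 27 of histone H3. Untreated cells (−Dox) and cells given doxycycline at 1 µg/ml (+Dox), both in StemFit AK-03 and both harvested on day 3, were used for chromatin immunoprecipitation sequencing (ChIP-seq) with antibodies against H3K27me3 and H3K4me3. Both conditions carry the transgene, and no catalytically dead JMJD3c was part of these libraries, so an effect of doxycycline itself cannot be told apart from one of the enzyme.

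T-box proteins share a DNA-binding domain, the T-box, and many act as switches of lineage choice. T is made in the primitive streak and the notochord and EOMES in the streak and the future endoderm, and both are early markers of cells leaving pluripotency. TBR1 acts in neurons of the deep cerebral cortex, TBX1 in the pharyngeal region, TBX5 and TBX20 in the heart, TBX4 in the hindlimb and TBX5 in the forelimb, TBX2 and TBX3 as repressors in limb, heart and breast, and TBX6 in the mesoderm that forms somites. In embryonic stem cells such genes are mostly silent under H3K27me3, laid down by the Polycomb group, often beside H3K4me3, and promoters that carry both marks are called bivalent.

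The stretch of DNA just upstream of a start site shows what kind of promoter each value belongs to. Sequences are given 5′ to 3′ on the gene's strand from the human build GRCh37. Each is the 150 bases before the gene's most upstream annotated start within 3 kb of the start used for its signal. Those shown are of T (chr6:166582189-166582338), EOMES (chr3:27764203-27764352), TBX5 (chr12:114846248-114846397), TBX20 (chr7:35293712-35293861) and TBX6 (chr16:30103246-30103395), all on the minus strand. They are shown because T and EOMES are the best-known pair, TBX5 and TBX20 had the H3K4me3 intervals that excluded 1, and TBX6 had H3K27me3 at background level. Capitals mark CpG dinucleotides, the sites of DNA methylation, which are dense at promoters that Polycomb can occupy.
T: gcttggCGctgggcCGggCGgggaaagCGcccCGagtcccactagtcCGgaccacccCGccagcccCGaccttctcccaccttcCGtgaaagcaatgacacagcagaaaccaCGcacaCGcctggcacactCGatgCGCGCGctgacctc
EOMES: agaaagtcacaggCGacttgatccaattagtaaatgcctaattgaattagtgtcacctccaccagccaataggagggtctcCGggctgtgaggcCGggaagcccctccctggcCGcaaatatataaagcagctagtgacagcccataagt
TBX5: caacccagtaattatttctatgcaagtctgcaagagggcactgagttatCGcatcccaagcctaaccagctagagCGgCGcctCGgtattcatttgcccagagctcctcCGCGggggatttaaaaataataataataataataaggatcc
TBX20: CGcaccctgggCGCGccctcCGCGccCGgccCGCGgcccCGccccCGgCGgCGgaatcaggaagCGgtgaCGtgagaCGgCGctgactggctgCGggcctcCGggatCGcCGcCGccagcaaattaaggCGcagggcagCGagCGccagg
TBX6: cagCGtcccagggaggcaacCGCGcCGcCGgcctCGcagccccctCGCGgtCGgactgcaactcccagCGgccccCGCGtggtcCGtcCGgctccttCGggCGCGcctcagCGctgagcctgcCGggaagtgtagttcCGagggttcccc
TBX20 held 24 CpGs in these 150 bases, TBX6 20, T 15, TBX5 6 and EOMES 4, so the count next to the start did not separate TBX6 from the genes with high H3K27me3.

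Each value is a deposited signal: read coverage summed over the 6 kb window around 1 annotated start per gene. The authors scaled it to the reads of the library. Genes of a library thus share 1 window length and scale, but differences between genes in the recovery of reads were not examined. Every value was a whole multiple of a library's smallest step, from which the 4 libraries held 2629351 to 3509244 reads, and 1 read corresponded to a value of 0.969 to 1.29. The step was the same in both +Dox libraries, 0.373, and so was the implied number of reads. Whether 1 total was used to scale both is not given in the sources used here. If it was, the printed ratios of 1 mark would all carry a common factor. At the study's threshold of 20, above which a promoter counts as marked, a window held about 15.5 to 20.6 reads. With 1 library per mark and condition there were no replicates. Ratios are +Dox over −Dox, with a 95% interval (Clopper-Pearson, from the approximate reads) that covers counting error only and compares 2 libraries, not the conditions. No input library was used, and scaling to library reads cannot show a loss shared by the whole genome. A lower ChIP signal cannot separate fewer cells carrying a mark from less mark in each cell. Of 7 genes that mark undifferentiated stem cells, 6 carried H3K4me3 without H3K27me3 in both conditions, with H3K4me3 of 51.6 to 173 in −Dox, and POU5F1 was below the threshold for both marks at the start used in the files, whose window does not reach the canonical start. The 3 fibroblast genes also carried H3K4me3 alone, as did 10980 of all 20242 promoters in −Dox. This state therefore does not single out stem cells. All 4 neural and endoderm genes were bivalent in −Dox, against 9.42% of all promoters. In +Dox the neural genes PAX6 and SOX1 were still bivalent, with both intervals including 1. Of the endoderm genes, SOX17 had H3K4me3 of 29.4 in −Dox and 5.59 in +Dox (ratio 0.191, 0.0447 to 0.495) with H3K27me3 of 185 and 195, and FOXA2 had H3K27me3 of 114 and 26.8 (0.236, 0.138 to 0.380) with H3K4me3 of 51.0 and 74.9. Whether a change in cell type has a part in the T-box values was not tested. RNA was not measured in these libraries, so the cell type was read from promoter marks only, which do not establish it.

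Before induction the T-box promoters stood among the most H3K27me3-rich of the genome. In −Dox, 7 of the 10 were bivalent, against 9.42% of all promoters. TBX2 had H3K27me3 only, and TBX1 and TBX6 had H3K4me3 only. The 8 genes above the threshold had −Dox H3K27me3 values from 104 (TBX3) to 201 (TBX2), each higher than 98.2% to 99.7% of all promoters, whereas their H3K4me3 was ordinary, at 18.2 to 66.4 beside a median of 41.3 over all promoters. In +Dox, 6 of the 10 were bivalent, against 5.07% of all promoters. The genes that changed class were TBX20, from bivalent to H3K27me3 only, and TBX1, from H3K4me3 only to neither mark. Of the 1907 promoters bivalent in −Dox, 973 were still bivalent in +Dox and 138 had H3K27me3 only. Of the 10980 with H3K4me3 only, 222 had neither mark in +Dox. The H3K4me3 ratio of TBX1 had an interval that includes 1.

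**Figure D1:**
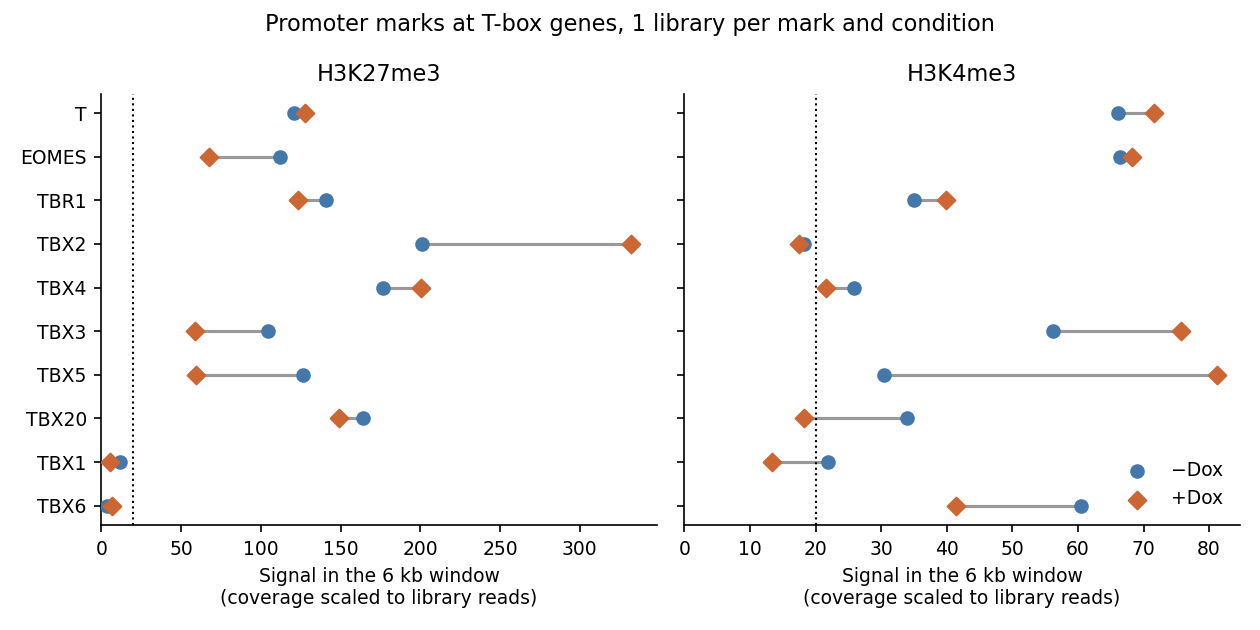
Deposited signal in the 6 kb window (horizontal axis, coverage scaled to library reads) of the 10 T-box genes for H3K27me3 (left) and H3K4me3 (right), 1 library per mark and condition. Circles are −Dox, diamonds +Dox, and the dotted line is the threshold of 20. H3K27me3 of EOMES, TBX3 and TBX5 moved left, that of TBX2 moved right to 331.8, and H3K4me3 of TBX5 moved right to 81.3.

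H3K27me3 did not go one way across the family. It was lower in +Dox at 6 of the 10 genes and higher at 4. Over all promoters with a −Dox signal it was lower at 11024 of 19462, and over bivalent promoters at 1671 of 1907. A mix of directions was thus not particular to these genes. The ratio was below 0.5 at 2 genes (TBX1 and TBX5), against 21.5% of all promoters with a −Dox signal, and below 0.66 at 4 genes (also EOMES and TBX3), against 33.6% of all promoters and 61.4% of bivalent promoters. The interval lay below 1 at 3 genes (EOMES, TBX3 and TBX5), against 6.76% of all promoters and 47.5% of bivalent ones, and it lay above 1 at TBX2 alone, against 1.43% and 2.05%. The same 3 genes were among the 7 bivalent members, so their count was close to the share over bivalent promoters. TBX2 had H3K27me3 only in −Dox, a class in which the interval lay above 1 at 24 of 319 promoters. The median log2 ratio over the 10 genes was −0.16, beside −0.15 for all promoters and −0.81 for bivalent promoters. With both libraries scaled to the same total, 2 genes in place of 4 had a ratio below 0.66, 2 in place of 1 had an interval above 1 (TBX4 joined TBX2), and the median was 0.07. For H3K4me3 the interval lay below 1 at TBX20, against 2.99% of all promoters and 10.1% of bivalent ones, and above 1 at TBX5, against 1.7% and 1.57%. The median log2 ratio of H3K4me3 was −0.01, with −0.03 over all promoters and −0.18 over bivalent promoters.

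**Figure D2:**
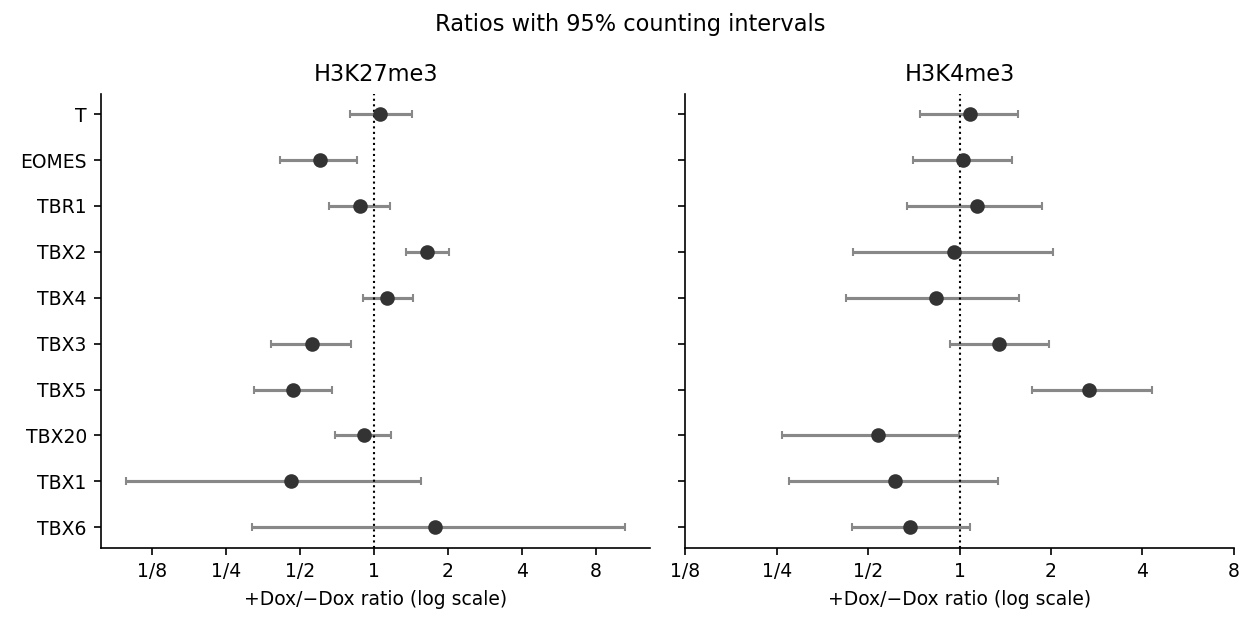
Ratio of +Dox to −Dox signal (log axis) of the 10 T-box genes for H3K27me3 (left) and H3K4me3 (right), with bars for the 95% counting interval and a dotted line at 1. For H3K27me3 the bars of EOMES, TBX3 and TBX5 lie below 1 and that of TBX2 above it, and the bars of TBX1 and TBX6 are wide because their windows held 9 reads or fewer.

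H3K27me3 at brachyury was level between the libraries within counting error, and at EOMES it was lower in +Dox. T (ENSG00000164458, start at chr6:166582188, minus strand) had H3K27me3 of 121 in −Dox and 127.5 in +Dox, about 93 and 101 reads, a ratio of 1.06 (0.795 to 1.43). Its H3K4me3 was 66.1 and 71.6, a ratio of 1.08 (0.743 to 1.56). Both intervals include 1, and of the 10 genes T had the H3K27me3 ratio nearest to 1. EOMES (ENSG00000163508, start at chr3:27763989, minus strand) had nearly the same marks as T in −Dox, with H3K27me3 of 112 and H3K4me3 of 66.4. In +Dox its H3K27me3 was 67.5, a ratio of 0.601 (0.416 to 0.850), while its H3K4me3 was 68.2, a ratio of 1.03 (0.704 to 1.48). EOMES therefore stayed bivalent, with lower H3K27me3 and no detectable difference in H3K4me3. The H3K27me3 ratio of T exceeded that of EOMES 1.78-fold (interval 1.12 to 2.85). The H3K4me3 ratios did not separate, at 1.05-fold (0.618 to 1.79).

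TBR1, the closest relative of EOMES in the list, was intermediate. TBR1 (ENSG00000136535, start at chr2:162272808, plus strand) had H3K27me3 of 141 in −Dox and 123 in +Dox, a ratio of 0.877 (0.657 to 1.16). Its H3K4me3 was 35.1 and 39.9, a ratio of 1.14 (0.674 to 1.87). Neither mark differed beyond counting error, and the H3K27me3 ratio of TBR1 over that of EOMES was 1.46 (0.922 to 2.32), which does not separate them either.

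TBX2, TBX3, TBX4 and TBX5 form 1 subfamily, known to lie in the human genome as linked pairs, TBX2 beside TBX4 and TBX3 beside TBX5. Here the H3K27me3 ratios of linked genes were nearer to each other than those of the close paralogues TBX2 and TBX3 or TBX4 and TBX5. Linked genes were also nearer in −Dox H3K27me3, at 201 and 176 for TBX2 and TBX4 and 104 and 127 for TBX3 and TBX5. Other promoters with a mean signal within 25% had median ratios of 1.23 and 1.09 around TBX2 and TBX4. Around TBX3 and TBX5 these medians were 0.716 and 0.766. Whether linkage has a part beyond the level was not tested. TBX2 (ENSG00000121068, start at chr17:59477271, plus strand), a repressor, had H3K27me3 of 201 in −Dox and 331.8 in +Dox, about 156 and 262 reads, a ratio of 1.65 (1.35 to 2.02). Only 7 of the 20242 promoters had a higher H3K27me3 value in +Dox, against 57 in −Dox. H3K4me3 of TBX2 was 18.2 and 17.5, just under the threshold in both libraries, a ratio of 0.961 (0.447 to 2.03). TBX4 (ENSG00000121075), a gene of hindlimb growth, had H3K27me3 of 176 and 200.2, a ratio of 1.13 (0.900 to 1.44), with H3K4me3 of 25.9 and 21.6, a ratio of 0.834 (0.421 to 1.57). Its interval includes 1 for both marks, and its transcript could not be placed on the annotation used here, so no position is given.

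TBX3 (ENSG00000135111, start at chr12:115121980, minus strand), a repressor that stem cells also use, had H3K27me3 of 104 in −Dox and 58.5 in +Dox, a ratio of 0.562 (0.379 to 0.809). Its H3K4me3 was 56.1 and 75.7, a ratio of 1.35 (0.928 to 1.98), which includes 1. TBX3 thus had lower H3K27me3 and remained bivalent. TBX5 (ENSG00000089225, start at chr12:114846247, minus strand), a heart and forelimb activator whose start lies 276 kb from that of TBX3, had H3K27me3 of 127 and 59.3, about 98 and 47 reads, a ratio of 0.468 (0.325 to 0.672). Its H3K4me3 was 30.5 in −Dox and 81.3 in +Dox, about 31 and 64 reads, a ratio of 2.67 (1.73 to 4.29). TBX5 was the 1 gene of the 10 at which both intervals excluded 1, with the marks in opposite directions. This combination held at 24 of 1907 bivalent promoters (1.26%), and 0 of the 1907 had a higher H3K4me3 ratio than TBX5. Over bivalent promoters with an H3K27me3 interval below 1, 388 of 906 (42.8%) had a higher H3K4me3 value in +Dox, against 230 of the other 1001 (23.0%). The start used for TBX5 was 2298 bp from the canonical start, which the window still covers, and TBX5-AS1, a long noncoding RNA on the other strand, begins 308 bp downstream of it, so the signals of the 2 starts cannot be told apart.

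Compared directly, the H3K27me3 ratio of TBX2 was 2.95-fold that of TBX3 (1.92 to 4.58), and the ratio of TBX4 was 2.42-fold that of TBX5 (1.57 to 3.76). Within the linked pairs the differences were smaller: 1.44-fold for TBX2 over TBX4 (1.06 to 1.98) and 1.18-fold for TBX3 over TBX5 (0.695 to 2.02), the latter including 1. For H3K4me3 the ratio of TBX4 was 0.308 of that of TBX5 (0.135 to 0.683) and that of TBX3 was 0.503 of that of TBX5 (0.275 to 0.910). The other H3K4me3 contrasts did not separate, with 0.714 for TBX2 over TBX3 (0.301 to 1.66) and 1.17 for TBX2 over TBX4 (0.421 to 3.23). In all, 6 pairs were compared for each mark, and the intervals are adjusted neither for that number nor for the signal level.

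TBX20 differed in H3K4me3 and not detectably in H3K27me3. TBX20 (ENSG00000164532, start at chr7:35293711, minus strand), a factor of heart muscle and valves, had H3K27me3 of 164 in −Dox and 149 in +Dox, a ratio of 0.908 (0.696 to 1.17). Its H3K4me3 was 33.9 and 18.3, about 35 and 14 reads, a ratio of 0.539 (0.260 to 0.998), whose upper bound only just misses 1 and passes it when both H3K4me3 libraries are scaled to the same total (0.552, 0.267 to 1.02). Among the 10 genes the heart factors TBX5 and TBX20 had the highest and the lowest H3K4me3 ratio.

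TBX1 and TBX6 had H3K27me3 below the threshold in both conditions. TBX1 (ENSG00000184058, start at chr22:19744226, plus strand), a gene of the pharyngeal arches, had H3K27me3 of 11.4 and 5.22, about 9 and 4 reads, a ratio of 0.457 (0.0980 to 1.56). Its H3K4me3 was 21.9 and 13.4, a ratio of 0.612 (0.275 to 1.34). The canonical start of TBX1 lies 4075 bp away, outside the window that was read, so these values do not describe the canonical promoter. TBX6 (ENSG00000149922, start at chr16:30103245, minus strand), a gene of somite-forming mesoderm, had H3K27me3 of 3.80 and 6.71, about 3 and 5 reads, below the median of all promoters in −Dox (6.09). Its H3K4me3 was 60.4 and 41.4, a ratio of 0.685 (0.442 to 1.08). At this depth no difference between the libraries was detectable for either gene.

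**Figure D3:**
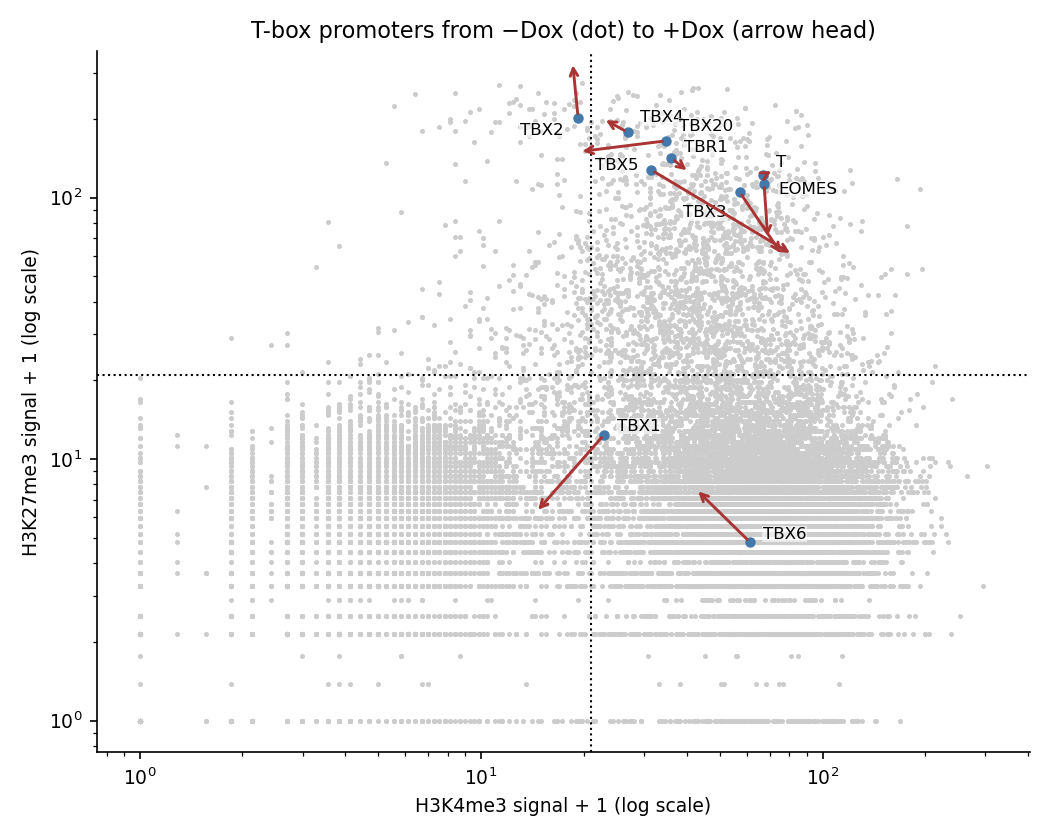
H3K27me3 signal + 1 (vertical) against H3K4me3 signal + 1 (horizontal), both on log axes, of all promoters in −Dox (grey) and of the 10 T-box genes from −Dox (blue dot) to +Dox (arrow head). Dotted lines are the threshold of 20. T and EOMES start side by side at H3K4me3 of 66.1 and 66.4, the arrows of EOMES, TBX3 and TBX5 end close together, and that of TBX2 points up.

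The members were also read against promoters of like level (mean of both libraries within 25%), because the H3K27me3 ratio varied with the level. It was near 1 at low levels, with medians of 1.04 around TBX6 (6181 promoters) and 0.980 around TBX1 (5290), lower around TBX3, and above 1 around TBX2. The 64 promoters near TBX2 had a median ratio of 1.23, with the interval above 1 at 33 of them, and each of the 64 had a lower ratio than TBX2. This mean contains the +Dox value, so the match was repeated on the −Dox value alone, a choice made after seeing the data. Of 143 promoters with a −Dox value like that of TBX2, the median ratio was 1.07, 38 had an interval above 1, and 0 had a higher ratio than TBX2. Among all 298 promoters with a mean of at least 100, 54 (18.1%) had an interval above 1 and 2 had a higher ratio than TBX2. TBX4 (124 promoters, median 1.09), TBR1 (135, median 0.900) and TBX20 (124, median 0.973) were close to the middle of theirs, with 57.3%, 45.2% and 39.5% of the promoters lower. T was above the middle of its 144 promoters (median 0.884), 73.6% of which had a lower ratio. EOMES (229 promoters, median 0.738) and TBX3 (261, median 0.716) were below it, with 25.8% and 23.4% lower, and TBX5 (219, median 0.766) further below, with 9.59% lower. Matched on −Dox alone, the shares were 83.6% for T, 31.0% for EOMES, 29.0% for TBX3 and 12.04% for TBX5, each on the same side of the middle as before. For H3K4me3 all 4177 promoters near TBX5 had a lower ratio than it, 94.3% of 4549 had a lower one than TBX3, and 5.31% of 1432 a lower one than TBX20.

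**Figure D4:**
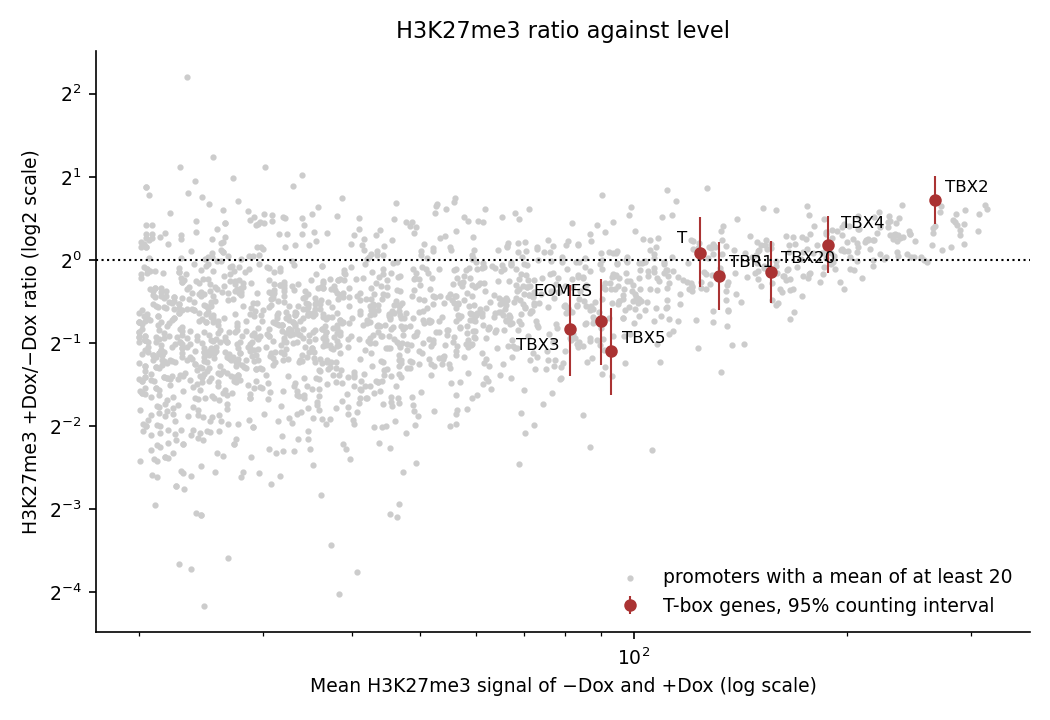
H3K27me3 ratio of +Dox to −Dox (vertical, log2 scale) against the mean H3K27me3 signal of both libraries (horizontal, log scale) for promoters with a mean of at least 20 (grey) and the 8 T-box genes in that range (red, bars for the 95% counting interval). The grey points rise towards the right and cross 1 near the highest levels, where TBX2 stands above its neighbours at 1.65.

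The files hold 7 further T-box genes. Of these (TBX10, TBX15, TBX18, TBX19, TBX21, TBX22 and MGA), 3 were bivalent in −Dox, against 9.42% of all promoters, and the H3K27me3 interval lay below 1 at 2, against 6.76%. TBX15, a gene of the skeleton and skin, had H3K27me3 of 153 in −Dox and 65.2 in +Dox, a ratio of 0.428 (0.299 to 0.593), with H3K4me3 of 27.1 and 35.0. TBX18, its close relative in heart and ureter, had H3K27me3 of 115 and 132, a ratio of 1.15 (0.855 to 1.54), with H3K4me3 of 44.2 and 28.3. TBX21 (T-bet, a factor of T helper cells) had H3K27me3 of 63.5 and 59.7, a ratio of 0.939 (0.617 to 1.43), and H3K4me3 of 25.6 and 22.7. TBX22 (palate) was listed at 0 for H3K27me3 in +Dox after 10.3, about 8 reads, in −Dox, with H3K4me3 of 3.42 and 1.12, and was the other gene with an interval below 1. MGA, a partner of MAX, had H3K27me3 of 18.6 and 7.46 (0.400, 0.132 to 1.16) and H3K4me3 of 69.2 and 71.6. TBX10 had H3K27me3 of 11.4 and 5.97 with H3K4me3 of 0.855 and 7.83, and TBX19, a pituitary factor, had 9.51 and 8.20 with 5.98 and 5.22. None of the 7 had an H3K4me3 interval that excluded 1, against 2.99% of all promoters below it and 1.7% above. Over all 17 T-box genes, 10 were bivalent in −Dox, against 9.42% of all promoters, 5 had an H3K27me3 interval below 1 and 1 above, against 6.76% and 1.43%, and the median log2 ratio was −0.21.

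Genes that work with these factors were followed in 4 lists with 31 genes in all. Of 7 signals that switch on T and EOMES, 2 were bivalent in −Dox, against 9.42% of all promoters. BMP4, 1 of these 2, had an H3K27me3 interval below 1, against 6.76% of all promoters. Its values were 54.4 in −Dox and 8.95 in +Dox, a ratio of 0.165 (0.0619 to 0.367). WNT3A, the other, had an H3K4me3 interval below 1, against 2.99% of all promoters, with 28.8 and 14.2, a ratio of 0.492 (0.217 to 0.985). The starts used for WNT3 and NODAL lie 14341 and 6270 bp from the canonical ones, outside the window, so their values do not describe the canonical promoters. Of 13 targets and partners of T and EOMES, 5 had an H3K27me3 interval below 1 and 1 above it. The shares were 6.76% and 1.43% of all promoters and 47.5% and 2.05% of bivalent ones. In −Dox, 4 of the 13 were bivalent, against 9.42% of all promoters. None of the 13 had an H3K4me3 interval that excluded 1, against 2.99% of all promoters below it and 1.7% above. The starts used for LEFTY1 and MESP2 lie 22236 and 15741 bp from the canonical ones, also outside the window. The 5 below 1 were CER1, an inhibitor of NODAL, with 87.5 and 24.98 (ratio 0.286, 0.166 to 0.481), the Notch ligands DLL1, with 21.7 and 6.34 (0.292, 0.0832 to 0.814), and DLL3, with 65.0 and 28.3 (0.436, 0.249 to 0.726), the homeobox gene LHX1, with 207 and 126 (0.612, 0.472 to 0.792; no position assigned), and MESP1, a gene of early heart mesoderm, with 17.5 and 4.47 (0.256, 0.0671 to 0.892). MESP1 was below the H3K27me3 threshold in both libraries, with about 14 and 4 reads, and DLL1 held about 17 and 5 reads. The gene with higher H3K27me3 was CDX2, a factor of trophoblast and hindgut, with 181 and 234 (1.29, 1.03 to 1.62). The median log2 H3K27me3 ratio of these 13 was −0.71, beside −0.15 for all promoters and −0.81 for bivalent ones.

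Of 7 partners and targets in the heart, no gene had an H3K27me3 interval that excluded 1, against 6.76% of all promoters below it and 1.43% above. ISL1, of heart progenitors, had H3K4me3 of 20.8 in −Dox, just above the threshold, and 39.1 in +Dox, a ratio of 1.88 (1.07 to 3.54). ACTC1, the cardiac actin, had 14.8 and 2.61, about 15 and 2 reads, a ratio of 0.176 (0.0194 to 0.750). Its H3K4me3 was below the threshold in both libraries. Over all promoters the H3K4me3 interval lay above 1 at 1.7% and below 1 at 2.99%. MEF2C was listed at 0 in −Dox for both marks and has no ratio, and its start in the files lies 20869 bp from the canonical one, outside the window. Of 4 partners and targets of TBR1 in the cortex, FEZF2, a factor of deep-layer neurons, had H3K4me3 of 32.8 and 15.7 (0.478, 0.218 to 0.914). FEZF2 was bivalent in −Dox, and 10.1% of bivalent promoters had an H3K4me3 interval below 1.

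The promoters whose 4 values were most like those of T, by Euclidean distance of log2(value + 1) over the 4 libraries, were IRX5 (distance 0.403), PDGFRA (0.433) and C17orf82 (0.442). Those most like EOMES were nearer, at 0.0885 for AIM1, 0.151 for GRM8 and 0.159 for FZD1. IRX5 had H3K27me3 of 102 in −Dox and 113 in +Dox with H3K4me3 of 77.8 and 79.0. AIM1 had H3K27me3 of 114 and 70.5 with H3K4me3 of 65.8 and 65.6. EOMES thus had near copies among other promoters, and T had none as close.

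CpG content was also computed over the whole 6 kb window. The ratio of observed to expected CpGs was 0.573 (TBX5) to 0.732 (TBX2) at the 7 genes with H3K27me3 above the threshold and a position, and 0.464 and 0.423 at TBX1 and TBX6. The 4 classes of promoter had medians of 0.545 (bivalent, n = 1746, quartiles 0.458 to 0.635), 0.494 (H3K4me3 only), 0.432 (H3K27me3 only) and 0.248 (neither mark). Promoters with H3K27me3 only thus had a lower median than those with H3K4me3 only. TBX1 and TBX6, both with H3K4me3 only in −Dox, lay within the quartiles of that class (0.422 to 0.573), TBX6 at the lower edge. The order of CpG content did not give the order of the ratios: TBX2 (0.732) and EOMES (0.707) were the highest in CpG and stood at 1.65 and 0.601 in the H3K27me3 ratio. These are descriptions over 9 genes, and base composition can also affect the recovery of reads, which was not tested.

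**Figure D5:**
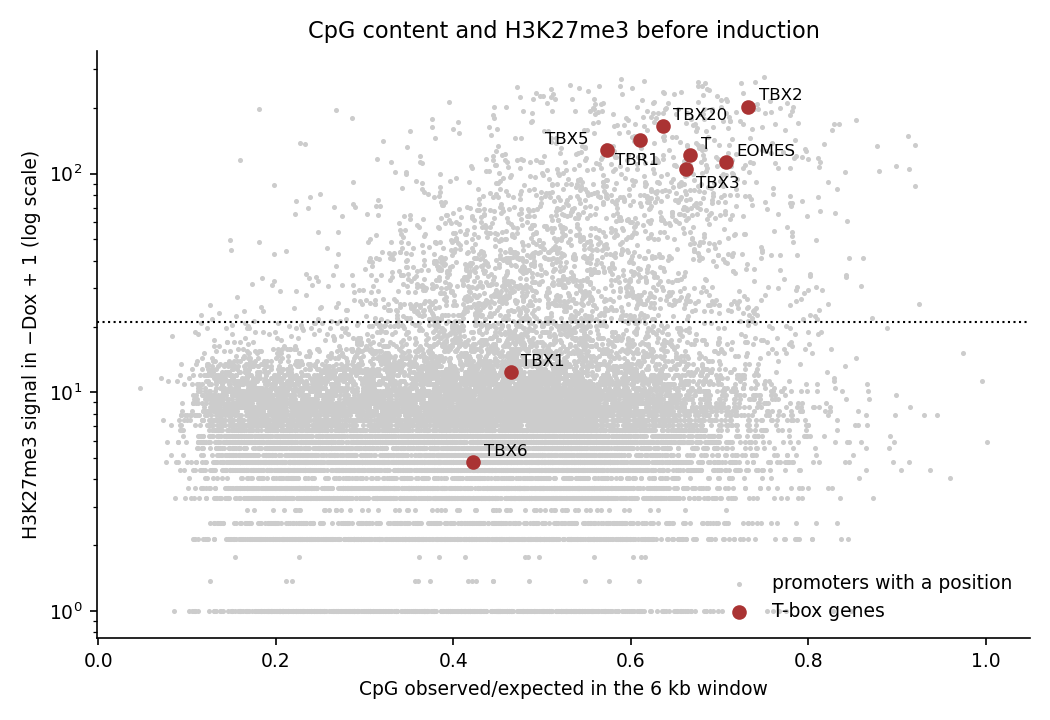
H3K27me3 signal + 1 in −Dox (vertical, log axis) against the ratio of observed to expected CpGs in the 6 kb window (horizontal) for all promoters with a position (grey) and the 9 T-box genes with one (red). The dotted line is the threshold of 20. The 7 T-box genes above it lie between 0.573 and 0.732, and TBX1 and TBX6 lie below it at 0.464 and 0.423.

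The T-box binding motif AGGTGTGA was searched on both strands (reverse complement TCACACCT) in the same windows. It was present in 2 of the 9 T-box windows (22.2%), once in T and 2 times in TBX6, and in 44.2% of all 18243 windows. These letters were not in the windows of the other 7 genes, which says nothing of binding there. Starts of long noncoding RNAs also lay in the windows of T (LNCDAT, 682 bp downstream of the start), TBX2, TBX3 (TBX3-AS1, 1883 bp downstream), TBX5 and TBX20 (611 bp upstream), each with at least 1 on the strand opposite to the gene, and in none of those of EOMES, TBR1, TBX1 and TBX6. ChIP-seq has no strand, so the marks of such starts and of the T-box genes cannot be told apart.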

How the data were processed

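H3K27me3 and H3K4me3 ChIP-seq libraries of −Dox and +Dox JMJD3c-hESCs (1 library per group, 4 in all, grouped by their labels) were analysed. The authors read single ends (MiSeq), aligned them to hg19 using Bowtie2 (CASAVA 1.4 is named in the submitters' processing notes, the Bowtie2 version is not given in the sources used here), removed mitochondrial reads and deposited ngs.plot signal, the coverage within 3 kb of 1 start per gene, scaled to library reads. Whether a further scaling to the density after transcription ends was applied is not given in the sources used here.

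The smallest step of each library was found (all values were whole steps), and values were turned into approximate reads with 3.4 data points per read, the median over the libraries of the spacing of peaks in the values (3.34 to 3.60). Ratios used no pseudocount, and a promoter at 0 in −Dox had none. Intervals are exact (Clopper-Pearson, on the share of a promoter's reads that came from +Dox), and ratios of ratios from the exact conditional interval. No test across genes was made. Classes used the study's threshold of 20. Transcripts were matched by identifier to GENCODE 44 on GRCh37 (18244 promoters, 90.1%). Python 3.11.15, pandas 2.3.3 and SciPy 1.17.1 were used.

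All 10 T-box genes and the other T-box genes were named. Of the 31 network genes, those with an interval excluding 1 were named, apart from items that are not reported here, and for T and EOMES the 3 nearest promoters. Members, lists and thresholds were chosen with earlier results of these data known. Alternatives included other scalings: the same library total, or promoters of low signal (mean up to 10) set equal by a median ratio of 1. Others were pseudocounts of 1 and 5, 5 data points per read, a minimum mean of 20, and canonical starts within 1 kb. Class thresholds of 10 and 30, and classes from +Dox, were also used. A match of like-level promoters on −Dox alone was added after seeing the data.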

Additional observations from a re-analysis of the deposited data

How the results depend on the processing

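No paired analysis was possible because each mark and condition had 1 library, which also means that none can be left out. Of 36 alternatives for the counts and medians, 30 stayed within the limits set for a change and 6 moved. Those limits were wide, so this tally is no measure of stability. A median log2 H3K27me3 ratio of 0.07 in place of −0.16 counted as within them. So did 9 bivalent genes in place of 7. Of 100 alternatives for single genes, 98 stayed within the limits set for a change, the ratios moving by less than their counting interval, and 2 moved: matched on −Dox alone (chosen after seeing the data), 53.0% of like-level promoters had a lower H3K27me3 ratio than TBR1 in place of 45.2%, and 49.8% a lower H3K4me3 ratio than TBX2 in place of 56.3%. These limits did not ask whether an interval excluded 1. That did switch with the same total at TBX4 for H3K27me3 and at TBX20 for H3K4me3. It also switched at TBX6 for H3K4me3 when promoters of low signal were set equal. With both H3K27me3 libraries scaled to the same total (factor 1.18), 2 genes had a ratio below 0.66 in place of 4 (EOMES at 0.708 and TBX3 at 0.661 no longer did), 2 had an interval above 1 in place of 1 (TBX4 joined, 1.33, 1.06 to 1.70), the upper bound of EOMES came to 1.00, and the median log2 ratio changed sign, from −0.16 to 0.07. The H3K4me3 interval excluded 1 at 2 genes (TBX5 and TBX20), at 1 gene with the same total, at 1 with 5 data points per read, at 1 among genes with a canonical start within 1 kb, and at 3 when promoters of low signal were set equal (TBX6 joined, 0.611, 0.394 to 0.962). The same limit to canonical starts, which leaves 7 genes and drops TBX1, TBX4 and TBX5, left 2 with an H3K27me3 ratio below 0.66, because fewer genes were counted. The median log2 H3K4me3 ratio changed sign, from −0.01 to 0.03, with the same total, and was −0.17 with low promoters set equal. In −Dox, 9 genes were bivalent at a threshold of 10 and 6 at 30. Depth limited TBX1 and TBX6, whose H3K27me3 windows held 9 reads or fewer.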
